A study of Mus musculus with 24 samples.

Results

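The comparison described here is that of embryos labelled Dlx5 homozygous knockout (Dlx5 -/-, Kat6a +/+) with embryos labelled Dlx5 heterozygous knockout (Dlx5 +/-, Kat6a +/+), that is, loss of the second Dlx5 copy. Its members are the 8 libraries that carry those labels, 4 biological replicates per genotype, out of 24 libraries in the series. Polyadenylated RNA of pharyngeal arches 1 and 2 was sequenced from C57BL/6 mouse embryos at E10.5, and reads were counted per gene. The other 4 genotypes of the series were wild type, Kat6a heterozygous, Kat6a homozygous and double heterozygous (Kat6a +/- and Dlx5 +/-). Embryos came from 2 mouse facilities, called batch 1 and batch 2 in the labels. All 4 Dlx5 homozygous libraries lay in batch 1, whereas heterozygous replicate 4 lay in batch 1 and heterozygous replicates 1 to 3 lay in batch 2. Batch was therefore estimated over all 24 libraries, and values within batch 1 (4 homozygous libraries against 1 heterozygous library) are given beside the results. The labels do not say which part of Dlx5 the allele removes.

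Dlx genes encode homeodomain transcription factors that lie in tail-to-tail pairs on the chromosomes. In the crest-derived mesenchyme of the arches their expression is nested: Dlx1 and Dlx2 are active along the whole arch, Dlx5 and Dlx6 in its lower, mandibular part, and Dlx3 and Dlx4 nearest the tip. Endothelin 1 signalling through Ednra maintains Dlx5 and Dlx6, which in turn act upstream of Hand2 and other genes of lower jaw identity. Loss of Dlx5 and Dlx6 together is known to turn the lower jaw into a structure resembling the upper jaw. The pairs also carry long noncoding transcripts, among them Dlx6os1 (Evf2), which runs through the Dlx5 and Dlx6 locus, and Dlx1as, which runs antisense to Dlx1.

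Total counts per library ran from 11.8 M to 12.6 M in the homozygous group and from 10.4 M to 16.7 M in the heterozygous group. Marker genes of crest mesenchyme, the labelled tissue, were all tested (11 of 11), and their summed level, in CPM (counts relative to the TMM-scaled library total), was 1989 to 2138 in homozygous and 1813 to 2076 in heterozygous libraries. The series describes all embryos as female. The sum of 4 Y-linked genes stayed at or under 0.43 CPM in all 24 libraries, and Xist, the RNA of the inactive X chromosome, was at 963 to 2456 CPM in 23 of them. Kat6a heterozygous replicate 3 had 7.55 CPM of Xist, with the Y-linked genes at 0. It is not among the 8 libraries but enters the fit over all 24. Without it 0 genes were called by edgeR, 2070 instead of 1565 were at an unadjusted p under 0.05, and Dlx6os1, the long noncoding transcript of the Dlx5 locus, had a log2 fold change of −0.58 (edgeR adjusted p = 0.207). A pair of libraries was taken to stand apart, by different measures. Homozygous replicate 1 had chi-square values per degree of freedom of 17.4 to 21.5 against its fellow replicates, where sampling noise alone would give about 1, and the other homozygous libraries had 3.47 to 4.66 among themselves, and it had the highest summed level of erythroid genes. Heterozygous replicate 2 had the highest summed level of neuronal genes of the 8 libraries. Chi-square values per degree of freedom did not single it out. They were 4.96 to 14.4 for heterozygous replicate 2 against its fellow replicates, and 6.29 to 14.4 for heterozygous replicate 3. Homozygous replicate 1 and heterozygous replicate 3 were not left out together. For some results that rest on homozygous replicate 1 and heterozygous replicate 2, values without this pair are also given. The pair was chosen after the data were seen. Msx1, Prrx1 and Fgf8, in which homozygous replicate 1 was extreme, are given with the pair only.

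Dlx5 itself, the targeted gene (Entrez gene 13395, chromosome 6, 6877801 to 6882068 in GRCm38), was counted at 67.4, 58.7, 57.7 and 66.5 CPM in homozygous replicates 1 to 4 and at 69.0, 76.0, 58.3 and 64.3 CPM in heterozygous replicates 1 to 4. The groups overlapped, and no library lay apart. The log2 fold change (homozygous minus heterozygous) was 0.03, with a standard error (SE) of 0.09, a 95% interval of −0.16 to 0.23 and an edgeR adjusted p of 0.895. It was −0.04 within batch 1 and −0.09 without the batch term. Gene-level counts therefore do not separate the labelled genotypes. A count over a whole gene does not reveal a partial deletion, so every direction given here is a direction in the libraries labelled Dlx5 homozygous. Kat6a, the histone acetyltransferase gene targeted in other groups of the series, stood at 240.04 ± 11.8 CPM (SD, n = 4) and 216 ± 18.5 CPM (SD, n = 4), with a log2 fold change of 0.19 (SE 0.12, edgeR adjusted p = 0.523).

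Across 14506 genes tested, edgeR's quasi-likelihood test called 0 genes (0%) at a Benjamini-Hochberg adjusted p under 0.05. At an unadjusted p under 0.05 there were 1565 genes (10.8%), of which 723 (4.98% of all tested) were higher and 842 (5.8%) lower in homozygous libraries. DESeq2 called 1 gene, Dlx6os1, and limma voom with quality weights called 2, Dlx6os1 and a gene known here only by its Entrez number. The median SE of a log2 fold change was 0.12. All 4 homozygous libraries lay below all 4 heterozygous libraries in 608 genes (4.19%) and above them in 625 (4.31%). These shares are the background against which counts of members are set below.

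**Figure D1:**
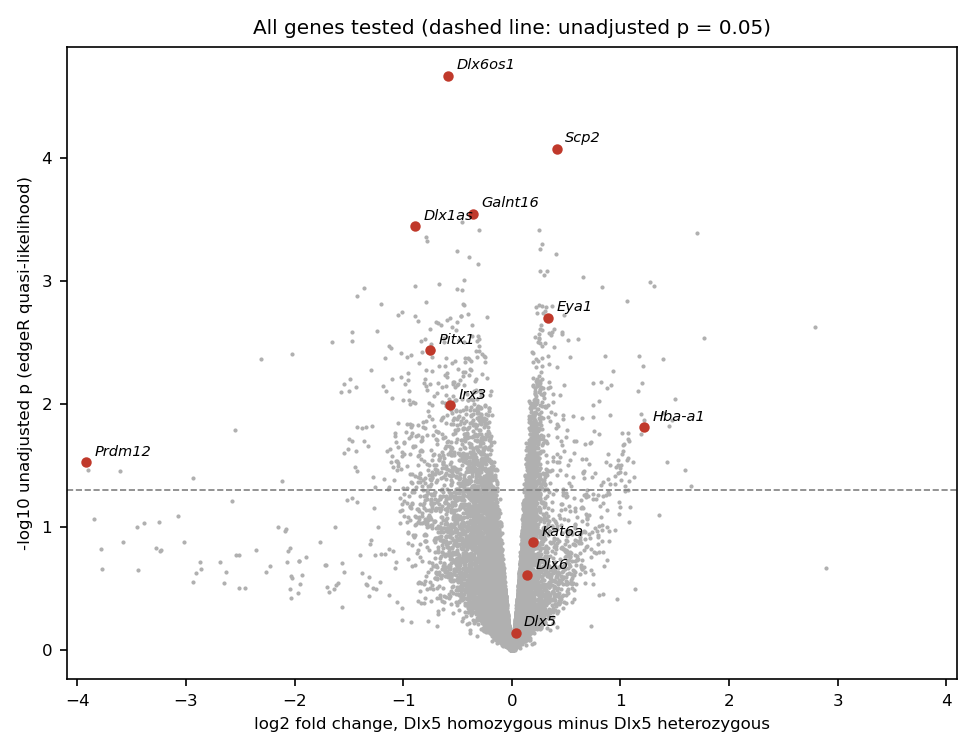
Each grey point is a gene; the x axis gives the log2 fold change, homozygous minus heterozygous, and the y axis −log10 of the unadjusted p of edgeR, with a dashed line at the 0.05 level. Named genes are in red. Dlx6os1 is the highest point at −0.59, whereas Dlx5, Dlx6 and Kat6a lie under the dashed line; 9 genes with an absolute change above 4 fall outside the plot.

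Dlx6os1 had the smallest p of all genes tested. Its level was 26.0, 23.8, 26.5 and 24.1 CPM in homozygous replicates 1 to 4, and 46.2, 40.7, 42.6 and 34.3 CPM in heterozygous replicates 1 to 4. Every homozygous library lay below every heterozygous library, and the lowest heterozygous value belonged to replicate 4, the one in batch 1. The log2 fold change was −0.59 (SE 0.11, 95% interval −0.82 to −0.35), with an edgeR adjusted p of 0.311, which does not pass the threshold. Within batch 1 it was −0.45 (SE 0.11, edgeR adjusted p = 0.283). The fitted difference between the facilities for this gene was −0.15 (batch 1 minus batch 2). Adjusted p passed 0.05 with DESeq2 (0.0285), limma voom (0.0209) and edgeR without the batch term (0.00126), within a range of 0.00126 to 0.988 over all alternatives. Without both libraries that stood apart the log2 fold change was −0.61 (edgeR adjusted p = 0.245).

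Dlx6os1 spans chromosome 6 from 6820543 to 6871627 in GRCm38 and overlaps Dlx6 (6863334 to 6867970). How strand was handled in counting is not given, so reads may be split between the pair in error. The promoter windows of Dlx6os1 are shown because it is the transcript with the smallest p and because its windows were the only ones with homeodomain core motifs among those examined. Both come from RefSeq on GRCm38.p6, minus strand, at chr6:6869484-6869783 and chr6:6861634-6861933, each running from 250 bases before to 50 bases after a transcript start. Capitals mark TAATTA or TAATTG, searched on both strands, so that CAATTA is TAATTG read from the opposite strand.
Dlx6os1 first window: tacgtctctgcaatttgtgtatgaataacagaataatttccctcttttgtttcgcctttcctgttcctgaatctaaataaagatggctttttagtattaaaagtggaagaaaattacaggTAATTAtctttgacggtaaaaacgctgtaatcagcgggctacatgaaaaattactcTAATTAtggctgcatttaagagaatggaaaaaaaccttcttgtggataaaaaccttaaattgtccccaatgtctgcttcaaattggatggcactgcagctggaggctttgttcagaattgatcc
Dlx6os1 second window: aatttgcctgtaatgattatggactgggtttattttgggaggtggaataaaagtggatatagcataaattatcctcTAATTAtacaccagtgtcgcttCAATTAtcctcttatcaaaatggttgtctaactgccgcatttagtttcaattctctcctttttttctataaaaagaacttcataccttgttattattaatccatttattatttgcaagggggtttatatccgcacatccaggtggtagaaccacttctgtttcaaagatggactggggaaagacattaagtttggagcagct
The first window held 2 matches of TAATTA, and the second held 1 of TAATTA and 1 of TAATTG. Of the 27 genes looked up (the Dlx list and the genes of smallest p), 18 had a window in the table, with 25 windows of 300 bases in all. Among all 32851 windows in the table, 5.29% held TAATTA, 8% held TAATTG, 12.4% held either and 1.74% held at least 2 matches. A match is a run of letters and not evidence of binding.

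The second Dlx transcript with non-overlapping groups was Dlx1as (chromosome 2, 71530638 to 71537891). It was counted at 8.45, 9.02, 11.2 and 10.2 CPM in homozygous replicates 1 to 4 and at 20.8, 21.2, 30.6 and 15.9 CPM in heterozygous replicates 1 to 4. As for Dlx6os1, the lowest heterozygous library was replicate 4. The log2 fold change was −0.89 (SE 0.21, 95% interval −1.33 to −0.45, edgeR adjusted p = 0.455), and −0.70 within batch 1. It passed the threshold in the fit over all libraries without the batch term (−1.17, edgeR adjusted p = 0.0246, in a range over alternatives of 0.0246 to 0.988), and in the batch 1 fit without the filter on low counts. Dlx1, the coding gene that it overlaps (71528113 to 71533981), pointed the other way. Dlx1 stood at 76.4, 67.8, 73.3 and 73.9 CPM in homozygous libraries and at 64.8, 67.0, 54.9 and 61.7 CPM in heterozygous libraries, again without overlap but with a margin of less than 1 CPM. Its log2 fold change was 0.25 (SE 0.09, edgeR adjusted p = 0.455) and 0.24 within batch 1.

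Ratios of counts within a library do not depend on library scaling. For each 100 counts of Dlx5, Dlx6os1 had 36.2 to 45.9 counts in homozygous and 53.3 to 73.1 in heterozygous libraries. The same ratio ran from 54.7 to 84.2 in wild type libraries and from 33.7 to 41.4 in double heterozygous libraries, a range that overlaps the homozygous one. It ran from 25.8 to 34.9 in Kat6a homozygous libraries, below every Dlx5 homozygous library. For each 100 counts of Dlx1, Dlx1as had 11.1 to 15.3 counts in homozygous, 25.8 to 55.8 in heterozygous and 26.0 to 37.5 in wild type libraries. It ran from 21.4 to 25.9 in double heterozygous libraries, which reaches the lowest Dlx5 heterozygous value, and from 12.7 to 22.9 in Kat6a homozygous libraries, which overlaps the Dlx5 homozygous range. Both ratios thus separated the homozygous from the heterozygous libraries, including the heterozygous library of batch 1, at 53.3 and 25.8. They show unequal levels of the paired transcripts and not which member of a pair differed.

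The remaining Dlx genes showed smaller differences. Dlx4, which is expressed near the tip of the arch, was counted at 2.76, 2.75, 3.47 and 2.58 CPM in homozygous and at 3.44, 4.19, 3.68 and 4.24 CPM in heterozygous libraries. These ranges touched only through homozygous replicate 3, and the log2 fold change was −0.48 (SE 0.18, edgeR adjusted p = 0.455). Dlx6, the partner of Dlx5, was at 35.0, 29.7, 32.1 and 30.7 CPM in homozygous and at 27.9, 36.5, 28.0 and 29.4 CPM in heterozygous libraries. Heterozygous replicate 2 held the highest Dlx6 value of all 8, and the log2 fold change was 0.14 (SE 0.12, 95% interval −0.10 to 0.39). Dlx2 stood at 0.05 (SE 0.10) and turned to −0.02 within batch 1, and Dlx3 stood at −0.08 (SE 0.10). The ninth listed transcript, Dlx6os2, was too low to be tested. Of 8 tested members, 1 was higher and 3 were lower at an unadjusted p under 0.05 (background 4.98% and 5.8%). Of the 8, 0 passed edgeR's adjusted threshold, and the median log2 fold change was −0.02 against −0.01 over all genes tested.

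Per length of transcript (RPKM, computed from the deposited counts and gene lengths), Dlx2 was the most abundant Dlx gene, with a mean of 53.1 in homozygous and 49.4 in heterozygous libraries. Dlx5 followed with 44.5 and 47.6 RPKM. Dlx6, Dlx3 and Dlx1 lay between 22.3 and 32.7 RPKM in both groups. Dlx6os1 stood at 5.91 RPKM in homozygous and 9.64 RPKM in heterozygous libraries, and Dlx1as at 3.49 and 7.93 RPKM.

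**Figure D2:**
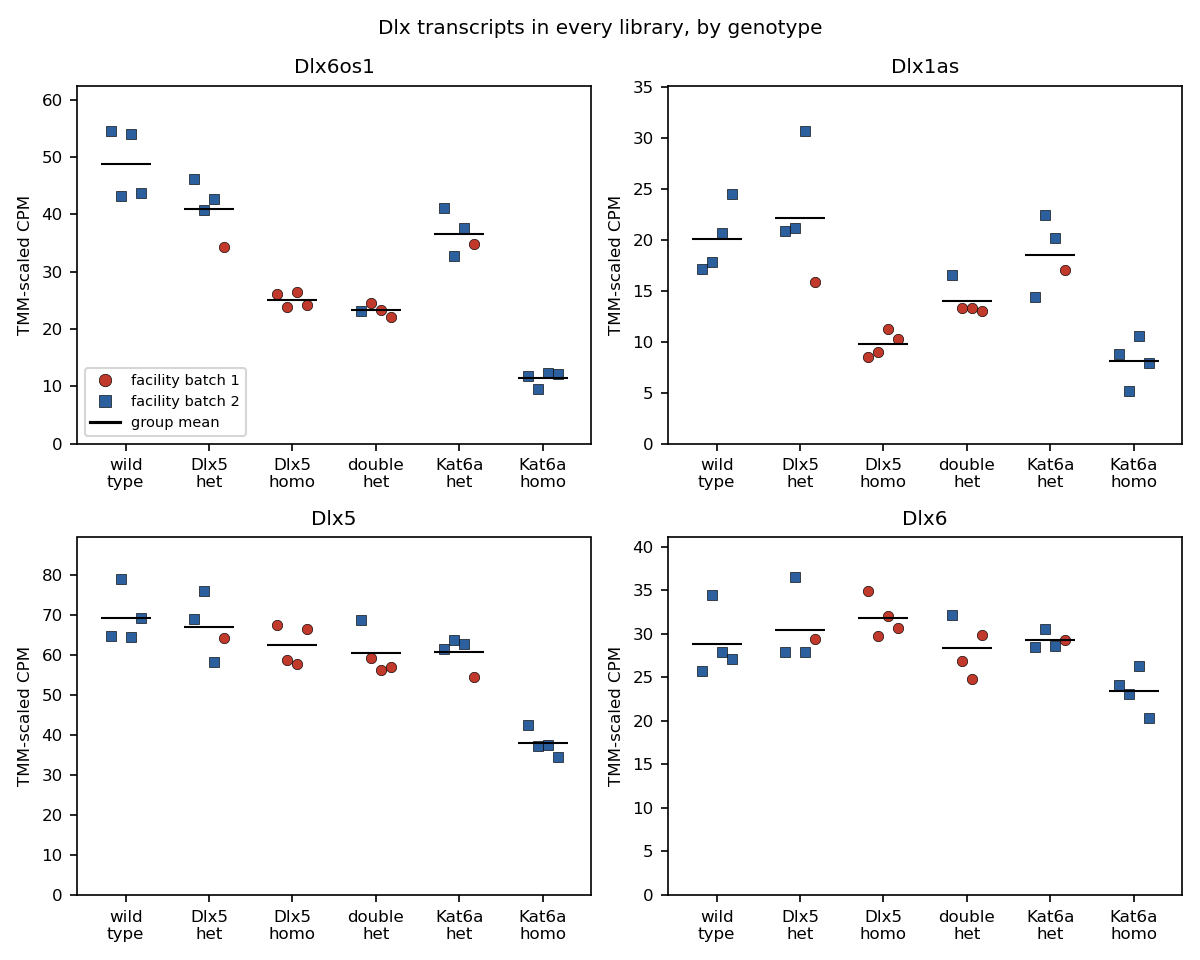
Levels of Dlx6os1, Dlx1as, Dlx5 and Dlx6 (y axis, CPM scaled by TMM) in each of the 24 libraries by genotype (x axis), with circles for batch 1, squares for batch 2 and a line at the group mean. The 4 Dlx5 homozygous libraries lie between 23.8 and 26.5 CPM for Dlx6os1, below every Dlx5 heterozygous library, while the groups overlap for Dlx5.

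Both Dlx5 genotypes were also set beside wild type and the double heterozygous group in the same fit. These comparisons share libraries, and the homozygous and wild type groups share no facility. Dlx6os1 had a log2 fold change of −0.81 in homozygous minus wild type (edgeR adjusted p = 0.0116), where 8 of 14506 genes were called (0.0551%). In heterozygous minus wild type it stood at −0.23 (edgeR adjusted p = 0.329), and in homozygous minus double heterozygous at 0.15 (edgeR adjusted p = 0.781). The first of these calls was lost without Kat6a heterozygous replicate 4 (−0.79, edgeR adjusted p = 0.101) or without double heterozygous replicate 1 (−0.76, edgeR adjusted p = 0.125). Dlx1as had −0.66, 0.22 and −0.43 in the same 3 comparisons, none past the threshold.

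The mandibular list held 20 genes that act in the lower arch, many of them described downstream of Dlx5 and Dlx6. Of 19 tested, 0 passed edgeR's adjusted threshold, 6 were lower and 0 higher at an unadjusted p under 0.05 (background 5.8% and 4.98%), 14 had a negative log2 fold change, and the median was −0.23. Within batch 1, 17 of 19 were negative and the median was −0.28. The summed level of the list was 989.6 to 1081 CPM in homozygous libraries and 1105 to 1238 CPM in heterozygous libraries, so the groups did not overlap. Every other genotype overlapped the homozygous range. Sums ran from 1063 to 1318 CPM in wild type and from 1033 to 1312 CPM in double heterozygous libraries. They ran from 1013 to 1125 CPM in Kat6a heterozygous and from 966 to 1127 CPM in Kat6a homozygous libraries. Without both libraries that stood apart, 2 of 19 were lower at an unadjusted p under 0.05, 14 had a negative value, and the median was −0.19. Without heterozygous replicate 4 the median was −0.12, with 12 negative values and 1 gene lower and 1 higher at that threshold. Without homozygous replicate 1 the median was −0.20, with 15 negative values and 1 gene lower.

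Pitx1, a homeobox gene of the mandibular arch and the hindlimb, had the smallest p of this list. It stood at 49.8, 65.4, 80.1 and 79.0 CPM in homozygous and at 93.4, 102, 101 and 117 CPM in heterozygous libraries. Every homozygous library was below every heterozygous one, with homozygous replicate 1 lowest. The log2 fold change was −0.75 (SE 0.22, 95% interval −1.22 to −0.28, edgeR adjusted p = 0.455), −0.77 within batch 1, and −0.61 without both libraries that stood apart.

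Msx1, a homeobox gene of distal arch mesenchyme that answers to BMP signalling, was at 15.4, 30.8, 44.3 and 35.7 CPM in homozygous and at 42.5, 50.6, 47.4 and 60.0 CPM in heterozygous libraries. The groups overlapped through homozygous replicate 3, and replicate 1 was lowest, for a log2 fold change of −0.84 (SE 0.35, edgeR adjusted p = 0.455). Gbx2, a homeobox gene of the mandibular arch and the otic placode, was at 5.10, 5.76, 6.03 and 4.68 CPM against 6.89, 10.2, 9.85 and 8.36 CPM, without overlap, and had a log2 fold change of −0.50 (SE 0.22). Barx1, a marker of mandibular and tooth-forming mesenchyme, had −0.31 (SE 0.15), and Bmp7, a secreted BMP ligand, had −0.34 (SE 0.16). Barx1 and Bmp7 overlapped between the groups.

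A further 4 genes of the list were picked after their values were seen, because they are the best known of it or had non-overlapping groups. Hand2, the basic helix-loop-helix factor that acts below Dlx5 and Dlx6, was at 76.7, 79.2, 90.0 and 85.2 CPM in homozygous and at 90.0, 105, 91.7 and 105 CPM in heterozygous libraries. The ranges met at 90.0 CPM, and the log2 fold change was −0.23 (SE 0.13, 95% interval −0.49 to 0.03). Its relative Hand1 had −0.35 (SE 0.18). Gsc, the goosecoid homeobox gene of ventral arch mesenchyme, was at 7.11, 9.62, 6.36 and 8.63 CPM against 11.7, 15.0, 18.0 and 10.51 CPM, without overlap. Its log2 fold change was −0.31 (SE 0.30), beside a fitted batch difference of −0.63 (batch 1 minus batch 2), and heterozygous replicate 4 was the lowest of its group. Shox2, a homeobox gene of limb and palate, was low in both groups, at 1.06 ± 0.30 and 3.02 ± 0.86 CPM (SD, n = 4 and 4), with −1.26 (SE 0.60) on the log2 scale. No gene of the list passed edgeR's adjusted threshold, the smallest adjusted p being 0.455. In all, 5 of 19 (background 4.19%) had all 4 homozygous libraries below all 4 heterozygous ones.

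**Figure D3:**
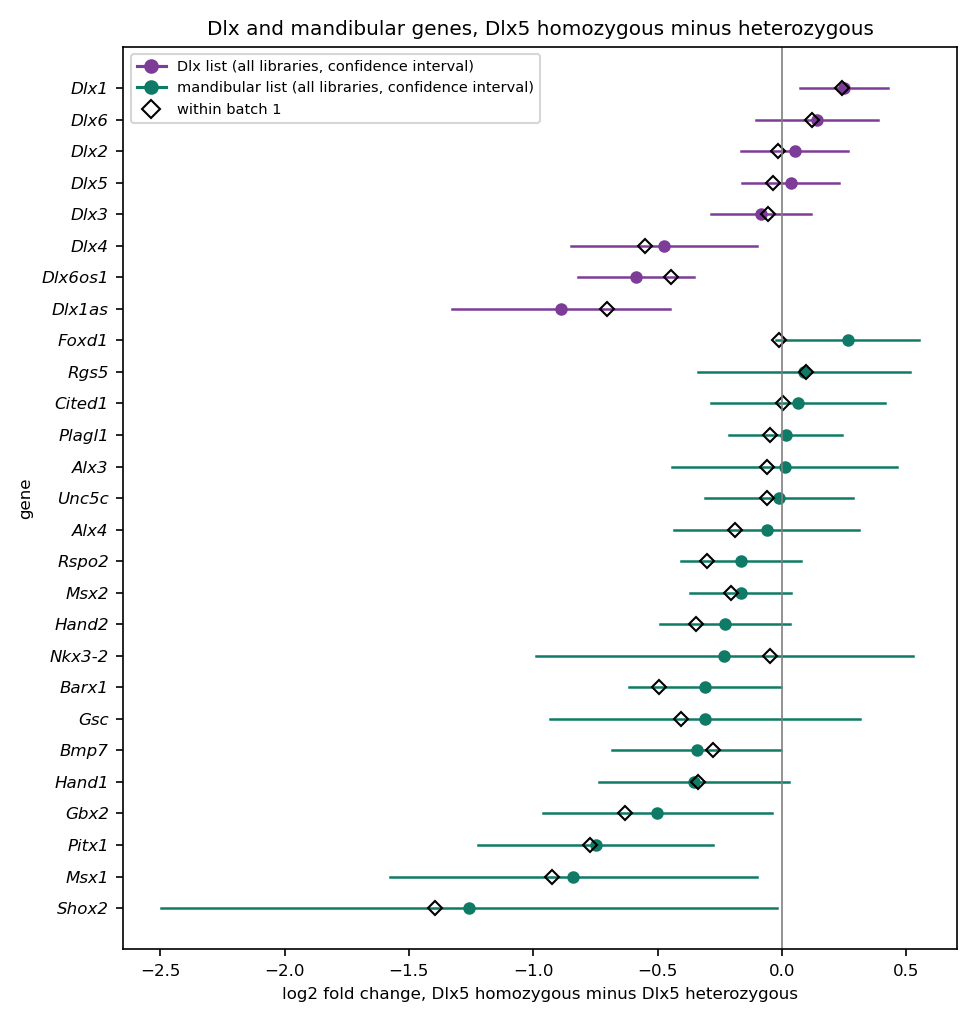
Log2 fold changes (x axis, homozygous minus heterozygous) of the 8 tested Dlx list members (purple) and 19 mandibular genes (green), with 95% intervals from the fit over all libraries and diamonds for the value within batch 1. Intervals of Dlx6os1, Dlx1as, Dlx4, Pitx1, Msx1, Gbx2, Barx1, Bmp7 and Shox2 lie wholly below 0. That of Dlx1 lies wholly above it, and 14 of the 19 mandibular points are below 0.

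The list of genes of the upper, maxillary part of the arch also held Prrx1 and Prrx2, which served as crest mesenchyme markers. Of 15 tested genes of this list, 10 had positive log2 fold changes, Prrx1 and Prrx2 among them. Within batch 1, 12 did, and the median over all libraries was 0.12. At an unadjusted p under 0.05, 2 were higher and 2 lower (background 4.98% and 5.8%). The median was positive in 34 of 34 alternatives, between 0.04 and 0.13. Eya1, a transcriptional co-activator that binds DNA through partner homeodomain factors, was at 122, 115, 120.4 and 119 CPM in homozygous and at 95.0, 101, 83.5 and 101 CPM in heterozygous libraries. All homozygous libraries were above all heterozygous ones, with a log2 fold change of 0.33 (SE 0.10, edgeR adjusted p = 0.455) and 0.23 within batch 1. Prrx1, a homeobox gene of arch mesenchyme, had 0.31 (SE 0.14), and its groups overlapped.

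The Iroquois homeobox genes Irx3 and Irx5 of the same list lay lower. Irx3 was at 19.3, 21.6, 22.1 and 23.1 CPM in homozygous and at 29.0, 26.2, 34.8 and 35.4 CPM in heterozygous libraries, without overlap. Kat6a heterozygous replicates 1 and 2, both at 16.9 CPM, lay below every homozygous library. Irx3 ran from 23.2 to 29.0 CPM in wild type, 27.0 to 38.3 CPM in double heterozygous and 22.2 to 35.8 CPM in Kat6a homozygous libraries. Over all libraries the log2 fold change of Irx3 was −0.57 (SE 0.20, edgeR adjusted p = 0.455). Within batch 1 it was −0.72 (SE 0.11, edgeR adjusted p = 0.0331), which passed the threshold as 1 of 2 genes called among 14795 (0.0135%). That call rests on heterozygous replicate 4, without which the log2 fold change over all libraries was −0.40, and it was lost when double heterozygous replicate 3 or homozygous replicate 2 was left out of the batch 1 fit. Irx5 had −0.49 (SE 0.21, edgeR adjusted p = 0.455).

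Signalling pathways of the arch were followed through lists of their ligands, receptors and targets. The background for these lists was 4.98% of all genes higher and 5.8% lower at an unadjusted p under 0.05. In the endothelin 1 pathway 0 of 11 genes differed at an unadjusted p under 0.05, with a median of 0.12. Mef2c, a transcription factor that endothelin signalling activates, had 0.34 (SE 0.17), and the receptor gene Ednrb, which crest glia and pigment cells express, had −0.90 (SE 0.43). The endothelin median stood at −0.11 without homozygous replicate 3. In the BMP pathway 3 of 22 were lower and 0 higher, with a median of −0.11. They were Bmp7, the pseudoreceptor gene Bambi (−0.26, SE 0.11) and Chrd, which encodes the secreted antagonist chordin (−0.51, SE 0.25).

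In the hedgehog pathway 1 of 14 genes was lower (7.14%), near the background of 5.8%. Shh, the ligand made by arch epithelium, was at 11.3, 9.71, 10.1 and 11.8 CPM in homozygous and at 15.1, 13.6, 13.1 and 13.9 CPM in heterozygous libraries. The groups did not overlap, and the log2 fold change was −0.57 (SE 0.17, edgeR adjusted p = 0.455), or −0.38 within batch 1.

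In the FGF pathway 2 of 17 genes were higher and 1 lower (background 4.98% and 5.8%), with a median of 0.01. Fgf8, the ligand of the arch ectoderm, was at 12.6, 15.9, 27.2 and 20.7 CPM against 23.0, 19.8, 28.6 and 30.6 CPM, with overlap, for a log2 fold change of −0.83 (SE 0.33). Spred1, an inhibitor of the Ras branch, had 0.32 (SE 0.11), and Lhx6, a LIM homeobox target in oral mesenchyme, had 0.33 (SE 0.12). For both, all homozygous libraries exceeded all heterozygous ones. Wnt genes gave 2 of 21 lower, among them the epithelial ligand Wnt6 at −0.91 (SE 0.31), and a median of −0.13. Retinoic acid genes gave 1 of 14 higher and 2 lower, one being the degrading enzyme gene Cyp26c1 at −0.56 (SE 0.24). None of the genes in these pathway lists passed edgeR's adjusted threshold.

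Among 13 genes of cartilage and bone, 3 were higher and 0 lower at an unadjusted p under 0.05 (background 4.98% and 5.8%). Sox5, a co-factor of Sox9 in chondrocytes, was at 76.3, 72.2, 66.1 and 67.3 CPM in homozygous and at 56.3, 62.6, 41.2 and 55.1 CPM in heterozygous libraries. Heterozygous replicate 3 was lowest and the groups did not overlap, for a log2 fold change of 0.42 (SE 0.16, edgeR adjusted p = 0.455) and 0.36 within batch 1. Sox9, the leading regulator of chondrocyte fate, had 0.28 (SE 0.11). Only 4 of 9 anterior Hox genes were tested, and Hoxa2, which sets the identity of arch 2, had −0.30 (SE 0.20), within a 95% interval of −0.70 to 0.11.

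Cell cycle genes had small positive values: 15 of 16 were above 0, and the median was 0.11. The topoisomerase gene Top2a (0.17, SE 0.07) was the 1 gene higher at an unadjusted p under 0.05 (6.25%, near the background of 4.98%). In glycolysis and hypoxia 1 of 18 was higher (5.56%, near the same background). This was the hexokinase gene Hk2 (0.40, SE 0.15), with all homozygous above all heterozygous libraries. Of the p53 response genes, 2 of 12 were lower (background 5.8%), and the cell cycle inhibitor Cdkn1a had −0.45 (SE 0.13, edgeR adjusted p = 0.455). In Cdkn1a the homozygous libraries ran from 19.6 to 20.8 CPM and the heterozygous ones from 18.7 to 26.3 CPM.

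Over all genes, those with the smallest p in each direction, Dlx6os1 aside, stood at an edgeR adjusted p of 0.455 and did not pass the threshold. Scp2, which encodes a peroxisomal sterol carrier, was at 37.8, 33.9, 34.4 and 39.4 CPM in homozygous and at 31.5, 29.5, 28.3 and 27.5 CPM in heterozygous libraries. No value overlapped, and the log2 fold change was 0.41 (SE 0.09), within batch 1 also 0.41. Tbl1xr1, a subunit of the NCoR corepressor complex, had 0.41 (SE 0.10), and Efcab7, a protein of the primary cilium, had 0.83 (SE 0.23) with overlapping groups. The other 7 genes of the higher set were Uspl1, Psmd11, Saal1, Zfp212, Ikzf5, Asb1 and Tle4, with log2 fold changes of 0.25 to 0.32. Psmd11 encodes a proteasome lid subunit and Tle4 a Groucho corepressor.

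In the lower direction, Tuba1a, an alpha-tubulin gene strongly expressed in young neurons, was at 40.3, 52.3, 46.2 and 47.2 CPM in homozygous and at 65.6, 65.4, 62.3 and 64.1 CPM in heterozygous libraries. The groups lay well apart, and the log2 fold change was −0.46 (SE 0.11), equal to its value within batch 1. Galnt16, a glycosyltransferase gene, had −0.36 (SE 0.09), Arvcf, a catenin of cell junctions, −0.31 (SE 0.07), and the tetraspanin gene Tspan13 −0.31 (SE 0.08), each without overlap. Cldn5, the claudin of endothelial tight junctions, had −0.51 (SE 0.13), and Plekha6 −0.79 (SE 0.19), also without overlap. Pla2g7, a secreted lipase of macrophages, had −0.78 (SE 0.20), and Adam15, a membrane metalloprotease, −0.39 (SE 0.10), both with overlapping groups. Of the 8 genes besides the Dlx transcripts, all had negative values within batch 1.

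**Figure D4:**
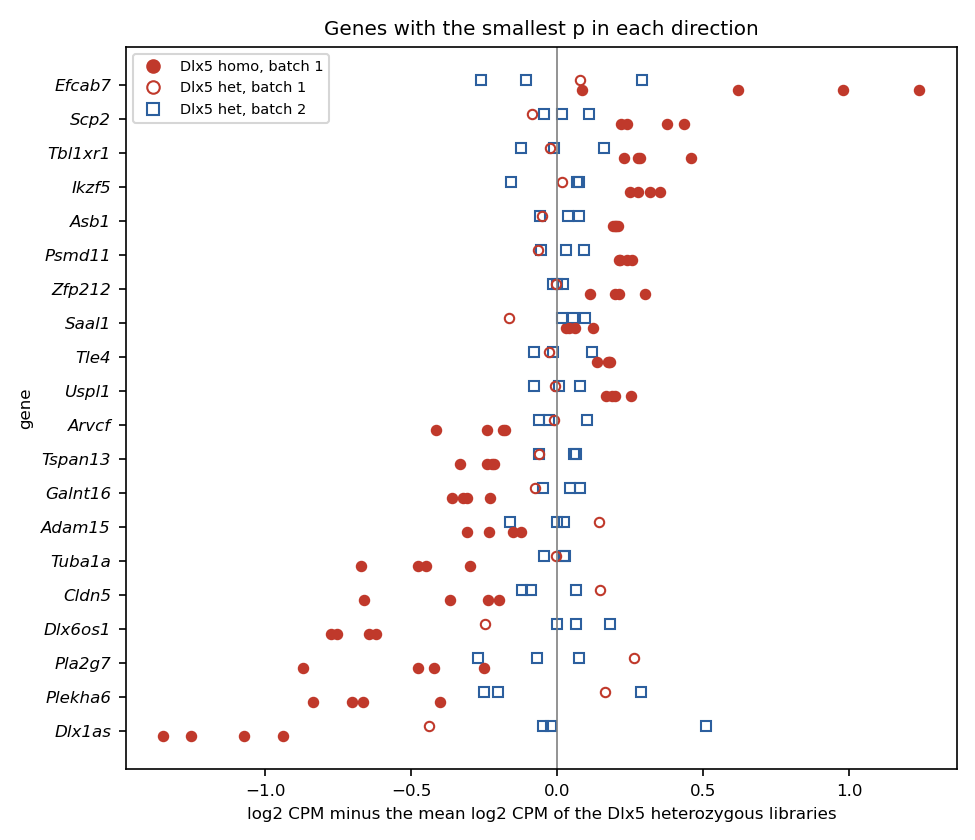
Each row is 1 of the 20 genes with the smallest p (10 per direction), and the x axis is log2 CPM minus the mean log2 CPM of the heterozygous libraries. Filled circles are homozygous libraries, open circles the heterozygous library of batch 1 and open squares the heterozygous libraries of batch 2; rows without overlap include Tuba1a, Scp2 and Dlx6os1, and rows with overlap include Efcab7, Saal1, Adam15 and Pla2g7.

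Markers of other cells that an arch dissection can hold were summed in each library. In bulk RNA, fewer cells of a type and less RNA per cell cannot be told apart. The summed level of crest glia markers was 43.7 to 52.9 CPM in homozygous and 67.5 to 94.7 CPM in heterozygous libraries. All 7 tested glia genes had every homozygous library below every heterozygous one, against 4.19% of all genes. At an unadjusted p under 0.05, 4 of 7 were lower (background 5.8%). The median was −0.90 (−0.73, with 3 of 7 lower, without both libraries that stood apart). Ptprz1, a receptor phosphatase of glia, had −0.55 (SE 0.18). Erbb3, the neuregulin receptor of Schwann cell precursors, had −0.54 (SE 0.19). Foxd3, a transcription factor of early crest, had −1.47 (SE 0.59) from 1.60 ± 0.21 CPM (SD, n = 4) in heterozygous libraries. No glia marker passed edgeR's adjusted threshold, and the part of these cells in other results was not tested.

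Neuronal markers were more uneven. Their sum was 162, 169, 136 and 144 CPM in homozygous libraries and 161, 498, 235 and 247 CPM in heterozygous libraries, so that heterozygous replicate 1 lay among the homozygous values and replicate 2 far above them. The growth cone gene Gap43 led this sum, with a mean of 99.8 CPM in homozygous and 97.8 CPM in heterozygous libraries. The mean log2 level over the 12 tested genes, each centred on its mean over all 24 libraries and so weighted equally, ran from −1.51 to −1.13 in homozygous libraries. It was −0.54, 2.11, 0.66 and 0.76 in heterozygous replicates 1 to 4, all above the homozygous values. Of the 12 genes, 7 had every homozygous library below every heterozygous one, against 4.19% of all genes. The median of 12 tested genes was −2.11, with 2 lower at an unadjusted p under 0.05. It was −1.68, with 0 lower at that threshold, without both libraries that stood apart. Neurog1, a proneural factor of cranial ganglia, had 0.08 to 0.41 CPM in homozygous and 1.21 to 7.13 CPM in heterozygous libraries. Elavl3 and Neurod1, of early neurons, were under 1 CPM in all homozygous libraries. The sum also varied among libraries of 1 genotype elsewhere in the series, from 135 to 593 CPM in wild type.

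Prdm12, a regulator of sensory neurons, was the other gene called within batch 1; it lies outside the rule for named genes and was chosen after its values were seen. It was at 0.17, 0.52, 0.25 and 0.32 CPM in homozygous libraries and at 2.05, 11.5, 3.13 and 3.94 CPM in heterozygous libraries. The groups were separate, and the highest value came from the library with the highest neuronal sum. Low levels of Prdm12 also occurred in other genotypes. Wild type libraries were at 0.47, 9.24, 1.21 and 0.42 CPM, and Kat6a homozygous libraries at 0.15, 5.68, 0.60 and 1.67 CPM. Double heterozygous libraries were higher, at 4.02 to 8.04 CPM. The log2 fold change within batch 1 was −3.62 (SE 0.45, edgeR adjusted p = 0.00553), and over all libraries −3.92 (SE 1.65, edgeR adjusted p = 0.455). Limma voom did not call it within batch 1. Among heterozygous libraries its levels followed the order of the neuronal sums, whose part in this result was not tested.

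Blood genes went the other way. The summed erythroid level was 5002, 2395, 2923 and 4168 CPM in homozygous and 2452, 2831, 2859 and 2008 CPM in heterozygous libraries, with overlap. This sum also varied within other genotypes of the series, from 1974 to 4929 CPM in wild type and from 2480 to 7510 CPM in Kat6a homozygous libraries. Of 11 genes, 6 were higher at an unadjusted p under 0.05 (background 4.98%) and the median was 1.02. It was 0.51 without the batch term, and 0.78 with 0 of 11 at that threshold without both libraries that stood apart. The embryonic globin gene Hba-x had 1.08 (SE 0.42), and the heme synthesis gene Alas2 had 1.03 (SE 0.41).

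Surface epithelium summed to 536 to 590.4 CPM in homozygous and 481 to 761 CPM in heterozygous libraries. All 13 tested genes had a negative log2 fold change, and the median was −0.39. At an unadjusted p under 0.05, 3 were lower. The background for this and the following lists was 5.8% lower and 4.98% higher. Among the 3 were Grhl2, a regulator of epithelial identity (−0.54, SE 0.21), and the adhesion gene Epcam (−0.48, SE 0.19). Shh, Fgf8 and Wnt6 are themselves made by epithelium, and the part of epithelial content in their values was not tested. Pharyngeal endoderm markers had a median of −0.36 over 9 genes, with 3 lower, branchiomeric muscle −0.32 over 12, with 2 lower, and forebrain, midbrain and eye −0.47 over 8, with 2 lower. Endothelium had −0.09 over 14, with 3 lower. Myeloid cells had 0.30 over 13, with 1 higher, the peroxidase gene Mpo (0.88, SE 0.30), whose value turned to −0.15 without the batch term. The myeloid median was positive in 33 of 34 alternatives and −0.05 at its lowest. Summed myeloid levels overlapped, at 37.7 to 47.4 CPM in homozygous and 33.3 to 63.4 CPM in heterozygous libraries. Crest mesenchyme markers had a median of 0.10 over 11 genes. Of these, 3 were higher, among them the receptor gene Pdgfrb (0.22, SE 0.08), and 2 were lower, among them the transcription factor gene Tfap2b (−0.83, SE 0.32).

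**Figure D5:**
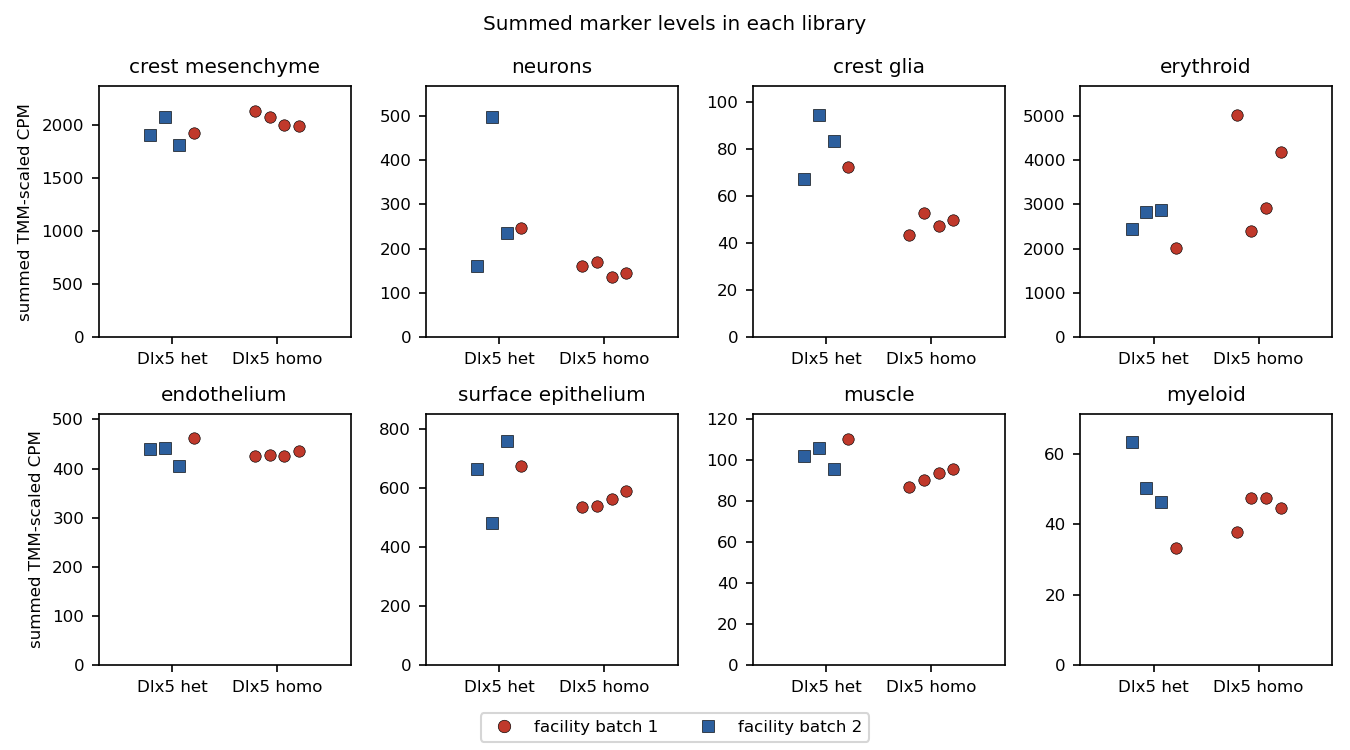
Summed CPM (y axis) of 8 marker lists in each library of the 2 genotypes (x axis), with circles for batch 1 and squares for batch 2. Crest glia sums do not overlap between the groups (43.7 to 52.9 against 67.5 to 94.7 CPM), 1 heterozygous library stands at 498 CPM for neurons, and the highest erythroid sum, 5002 CPM, is in a homozygous library.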

How the data were processed

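RNA-seq counts were compared between 4 Dlx5 homozygous and 4 Dlx5 heterozygous libraries. Per the labels' protocols, libraries were made with a stranded mRNA kit. Per the submitters' processing notes, CASAVA 1.8.2 and featureCounts were used on mm10. No aligner or annotation release is named, nor whether counting used strand. Deposited by the authors were raw counts and gene lengths; 568 of 27179 entries without an identifier (0.182% to 0.259% of a library's counts) were left out. Symbols and coordinates came from RefSeq on GRCm38.

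The test was edgeR 4.0.16 (R 4.3.3): filterByExpr by group (14506 genes), TMM scaling and a robust quasi-likelihood fit of 6 group means and a batch term over 24 libraries (17 residual degrees of freedom), with Benjamini-Hochberg adjustment. The fit within batch 1 used its 9 libraries and took the spread of the lone heterozygous library from the other groups. Alternatives were DESeq2 1.42.0, limma 3.58.1 voom, RLE scaling, other filters, no batch term, only the 8 libraries, a replicate block and each library left out. Leaving out both libraries that stood apart was added after seeing the data. The statistics were tested on simulated data. No replicate pair agreed within sampling noise (chi-square per degree of freedom 2.91 to 21.5).

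The members and gene lists were chosen with earlier results of these data known. Named genes were the Dlx list and Kat6a, the 10 genes of smallest p per direction averaging at least 1 CPM over the 8 libraries, and up to 4 genes of smallest p per list, leaving out predicted genes, pseudogenes and sex-linked markers. Hand1, Hand2, Gsc, Shox2 and Prdm12 fall outside that rule. Not every gene that the rule names is reported here. Replicate numbers carry no stated origin: deviations of same-numbered homozygous and heterozygous libraries correlated at −0.03 to 0.05, so the numbers were not taken to pair them.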

Additional observations from a re-analysis of the deposited data

Results flagged for a closer look

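In groups of 4 libraries, 9 of 202 values examined (4.46%) had an extreme library whose gap to its nearest neighbour exceeded Dixon's 95% critical share of the group's range; chance alone flags about 1 in 20 groups. Among homozygous libraries, replicate 1 had 1010.2 CPM of Prrx1 (others 845 to 871), replicate 2 had 0.172 CPM of Neurod1 (others 0.323 to 0.335), and replicate 3 had 91.4 CPM of Tle4 (others 94.0 to 94.4).

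Among heterozygous libraries, replicate 2 had 36.5 CPM of Dlx6 (others 27.9 to 29.4) and 7.13 CPM of Neurog1 (others 1.21 to 2.15). Replicate 3 was low for Spred1 at 97.5 CPM (others 119 to 122) and for Foxd3 at 1.29 CPM (others 1.67 to 1.73). Replicate 4 was high for Foxe1 at 9.43 CPM (others 4.79 to 5.40) and for total counts at 16.7 M (others 10.4 M to 11.3 M).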

How the results depend on the processing

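Of 73 named genes followed over 34 alternatives, 70 kept the sign of their log2 fold change in every alternative that gave a value. The other 3 were Dlx2, Dlx5 and Mpo. Most of the 73 were picked for a small p in the main fit, and most alternatives reuse nearly all of its libraries. A kept sign is therefore no independent support for a difference. Dlx2 and Dlx5 were named whatever their p. Dlx2 turned to −0.0153 within batch 1 and to −0.0176 with only the 8 libraries, and Dlx5 to −0.0948 without the batch term, −0.0382 within batch 1 and −0.0406 with only the 8 libraries. Leaving out 1 library gave −0.0134 to 0.116 for Dlx2 and −0.00855 to 0.111 for Dlx5. Mpo turned to −0.15 without the batch term. The causes were not tested.

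The count of genes called was 0 with RLE scaling, without the filter, with the stricter filter and with only the 8 libraries. It was 1 with DESeq2 (Dlx6os1), 2 with voom, 2 without the batch term (Dlx6os1 and Dlx1as) and 1 without both libraries that stood apart. The number at an unadjusted p under 0.05, 1565 in the main test, was 526 with only the 8 libraries and 855 without Kat6a heterozygous replicate 4. Leaving out 1 library at a time gave 0 to 2 calls, with 2 only without homozygous replicate 1. With the replicate number as a block, 1 gene was called, Dlx6os1 (−0.69, edgeR adjusted p = 0.00898); of the correlations that could pair the numbers, the largest was between differently numbered libraries (0.11), so the block rests on a shared number only.

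Within batch 1, 2 genes were called. The count was 15 with DESeq2, 1 with voom, 2 with RLE scaling, 20 without the filter and 1 to 36 when 1 library was left out, 36 of them without double heterozygous replicate 2. The stricter filter asks for 12 libraries and could not be applied to 9. Dlx1as in homozygous minus wild type passed only without the batch term (−1.03, edgeR adjusted p = 0.0384).

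The mandibular median stayed negative in 34 of 34 alternatives (−0.28 to −0.12), with 1 to 8 genes lower at an unadjusted p under 0.05. Medians of neurons (−2.73 to −1.68), crest glia (−1.08 to −0.60) and surface epithelium (−0.55 to −0.23) were also negative in all 34. With 1 heterozygous library in batch 1, the batch term and that library limit every value here.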
